A study of Homo sapiens with 2 samples.

Results

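CDKN1A-high DAC-treated cells are the HCT116 cells in which CDKN1A, the gene of the CDK inhibitor p21, took the largest share of the transcripts counted after treatment with decitabine (DAC). They were chosen by that measure. Among DAC-treated cells with 10000 or more UMIs, of which 50% or less came from genes of the mitochondrial genome, cells were ranked by CDKN1A UMIs divided by the total UMIs of the cell, and the top 25% were taken. A UMI, or unique molecular identifier, stands for 1 captured transcript molecule. They were 280 of 1120 retained and 1751 deposited DAC-treated cells, out of 3534 cells in both libraries, and were compared with the 280 cells of the bottom 25%, the CDKN1A-low cells. The same ranking was repeated in mock-treated cells, where 1298 of 1783 cells were retained and the top and bottom 25% held 324 cells each. The 4 groups of cells cut by this ranking are called the low, the second, the third, and the high group.

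Both libraries came from HCT116, a human colon cancer cell line with intact p53, grown in the same medium and harvested on day 7. For the DAC-treated library, 0.5 μM of DAC was given on day 1 and again on day 3, and the medium was replaced by one without DAC on day 5. The mock-treated library received no DAC. With 1 library per condition, no difference here has a replicate check and no p-value is given. Intervals are 95% intervals and cover counting error only, not the spread between cells or between cultures.

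p53 is a transcription factor that accumulates after DNA damage and other stress and binds response elements near its target genes. Its target p21 blocks cyclin-dependent kinases and thereby entry into S phase and mitosis, while MDM2, another target, ubiquitinates p53 and so closes a feedback loop, and the secreted cytokine GDF15 is a widely used marker of p53 activity. DAC is incorporated into DNA in place of deoxycytidine and traps DNA methyltransferases there, which removes methylation as cells divide and can also damage DNA.

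The sequences below show what a p53 response element looks like next to genes on which the results turn. The reference genome (hg38) was searched for the p53 response element consensus, which consists of 2 decamers set here without a spacer, with up to 2 mismatches and the central C and G of each decamer kept. The consensus is its own reverse complement, so that 1 search covers both strands. The matches are in capitals and each sequence is written on the strand of its gene, with starts of genes taken from RefSeq. The CDKN1A match at chr6:36676449-36676468 lay 2265 bases before the RefSeq start and overlapped the first bases of CDKN1A in GENCODE 44 (chr6:36676460-36687337, plus strand), in an exon of a transcript that starts there. The MDM2 match at chr12:68808923-68808942 lay 94 bases before the RefSeq start in the table, within an intron of the gene (chr12:68808177-68845544, plus strand). The GDF15 match at chr19:18385308-18385327 lay 850 bases before the start, also in an intron of the annotated gene (chr19:18374731-18389176, plus strand). PLK2 (chr5:58462274-58462293, minus strand, outside annotated genes) and ZMAT3 (chr3:179070188-179070207, minus strand, intron) are shown because their matches had 0 mismatches, against 2 in the other genes shown.
CDKN1A: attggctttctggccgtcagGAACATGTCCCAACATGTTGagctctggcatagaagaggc
MDM2: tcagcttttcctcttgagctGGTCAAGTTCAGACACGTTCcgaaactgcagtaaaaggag
GDF15: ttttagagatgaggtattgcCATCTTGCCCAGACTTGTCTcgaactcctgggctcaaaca
PLK2: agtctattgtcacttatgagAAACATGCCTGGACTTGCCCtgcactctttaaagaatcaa
ZMAT3: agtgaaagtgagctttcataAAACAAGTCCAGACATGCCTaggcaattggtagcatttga

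Of the CDKN1A gene and the 64 other p53 targets examined below, 51 had a start in the RefSeq table, and 15 of these (29.4%) had such a match between 2500 bases before and 500 bases after the start, against 781 of 27305 genes (2.86%). Within 250 bases before and 50 after the start, the counts were 6 of 51 (11.8%) and 98 of 27305 (0.359%). The list holds genes known as p53 targets, some of them because of such elements, so these shares describe the list and are not evidence about binding in these cells.

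Depth differed little among the DAC-treated groups and more among the mock-treated ones. The retained DAC-treated cells had 10042 to 110116 UMIs, with medians of 45464 in CDKN1A-low and 47879 in CDKN1A-high cells. In mock-treated cells, the medians were 26423 and 37178. All 324 cells of the mock low group had no CDKN1A UMI, and because 358 mock-treated cells were tied at 0, those with the fewest UMIs were placed first. All 358 had a median of 27427.5 UMIs, so the group was shallow with or without this order. Mitochondrial genes accounted for 15.2% of the UMIs in the median CDKN1A-low and 20.3% in the median CDKN1A-high DAC-treated cell, and 18.1% and 16.2% in mock-treated cells. Among retained cells, no barcode occurred in both libraries. As a check of the label, the 14 markers of blood, stromal, endothelial, liver, and glial cells summed to 28.8 CPM (UMIs per 1000000 UMIs) in CDKN1A-low and 38.7 CPM in CDKN1A-high cells, of which CD68 and COL1A1 alone reached 200 UMIs over both groups, while the 8 epithelial genes summed to 8382 and 8556 CPM. Each of the 14 had a UMI in some retained DAC-treated cell, and 7 had none in mock-treated cells.

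CDKN1A varied widely among DAC-treated cells, and the members held most of it. These values chose the cells and are given as a description. A CDKN1A-high cell had from 267.9 to 2461 CPM of CDKN1A with a median of 427, and a CDKN1A-low cell had from 0 to 56.0 CPM with a median of 26.0. The summed UMIs were 7324 in the high and 351 in the low group. On the scale of CPM of summed UMIs, the groups from low to high stood at 26.7 (24.0–29.6), 92.3 (87.3–97.6), 191 (184–199), and 521 (509.6–534). The high group held 63.4% of the CDKN1A UMIs of the DAC-treated cells. The limits fell within a continuous range, since the last cell inside the high group had 267.9 CPM from 20 UMIs and the first cell outside had 267.1 CPM from 12 UMIs. At the lower limit, the last cell inside had 56.00 CPM and the first outside had 56.05 CPM. When each UMI was assigned at random to one of a pair of sets, and cells were ranked on one set and measured on the other, the log2 ratio of high to low group was 3.18 in place of 4.29, with no UMI used for both the ranking and the measurement.

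In mock-treated cells, CDKN1A was lower throughout. Over all retained cells it stood at 112 CPM (109–115) in mock-treated and 212 CPM (208–216) in DAC-treated cells, and 358 of 1298 mock-treated cells (27.6%, Clopper-Pearson interval 25.2–30.1) had no UMI, against 78 of 1120 DAC-treated cells (6.96%, 5.54–8.62) at a higher depth. A mock-treated cell of the high group had 121.8 to 8120 CPM with a median of 197, and the highest value came from 1 cell with 194 UMIs, since the next had 1848 CPM. The ranges of both libraries overlapped. Of DAC-treated cells, 594 of 1120 (53%, 50.1–56.0) reached the lower limit of the mock high group, and 93 of 1298 mock-treated cells (7.16%, 5.82–8.71) reached that of the CDKN1A-high DAC-treated cells.

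**Figure D1:**
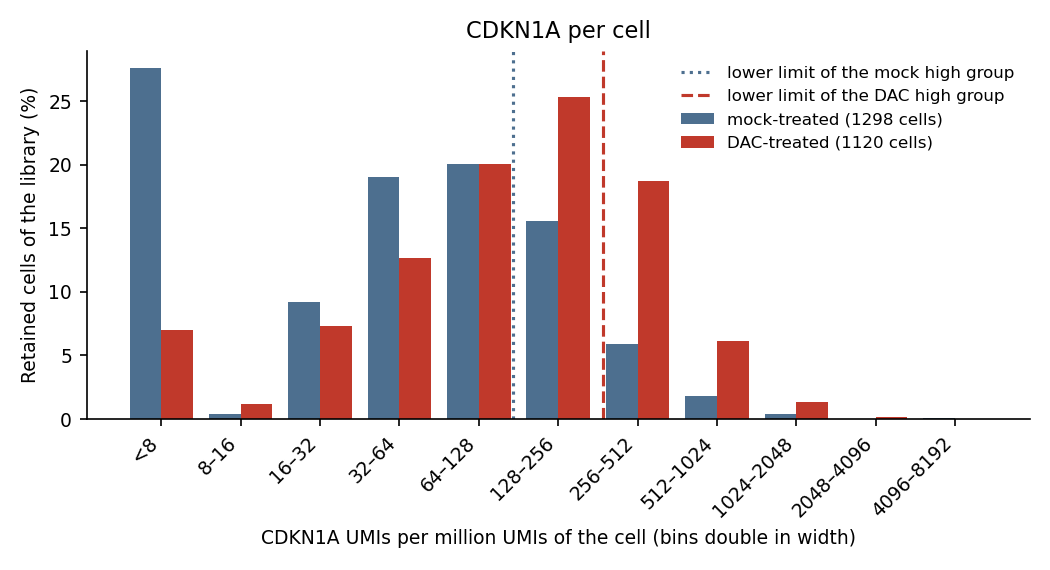
Distribution of CDKN1A over retained cells. The horizontal axis gives CDKN1A UMIs per 1000000 UMIs of a cell in bins that double in width, the vertical axis the percent of the retained cells of each library (1298 mock-treated, 1120 DAC-treated), and the lines the lower limits of the high groups, at 121.8 CPM in mock-treated and 267.9 CPM in DAC-treated cells. The lowest bin held 27.6% of mock-treated and 6.96% of DAC-treated cells, all without a CDKN1A UMI, and 7.16% of mock-treated cells lay at or above the DAC limit.

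The p53 targets other than CDKN1A, which the ranking did not use, were higher in CDKN1A-high DAC-treated cells nearly throughout. Of 64 targets, 52 had 200 UMIs or more over the high and low groups together and were compared, and 12 had fewer. The ratio of high to low group was above 1 in 50 of the 52, and 39 were higher by 1.5-fold or more and 0 were lower by that much, with a median log2 ratio of 0.90. Over all 8938 genes compared, 465 (5.20%) were higher by 1.5-fold or more, 332 (3.71%) were lower, and the median was 0.01. Summed over the 64 targets, the level went from 2381 CPM in the low group through 2814 and 3450 to 4672 CPM in the high group. In 42 of the 52, the CPM was higher in each group than in the one before, which held for 14% of all genes compared. The single cells still overlapped, from 1737 to 14128 CPM with a median of 4399 in the high and from 1144 to 7375 CPM with a median of 2316 in the low group. Of the CDKN1A-high cells, 169 of 280 (60.4%, 54.4–66.1) were also in the top 25% of DAC-treated cells by summed p53 targets, as were 14 of 280 CDKN1A-low cells (5%, 2.76–8.25).

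**Figure D2:**
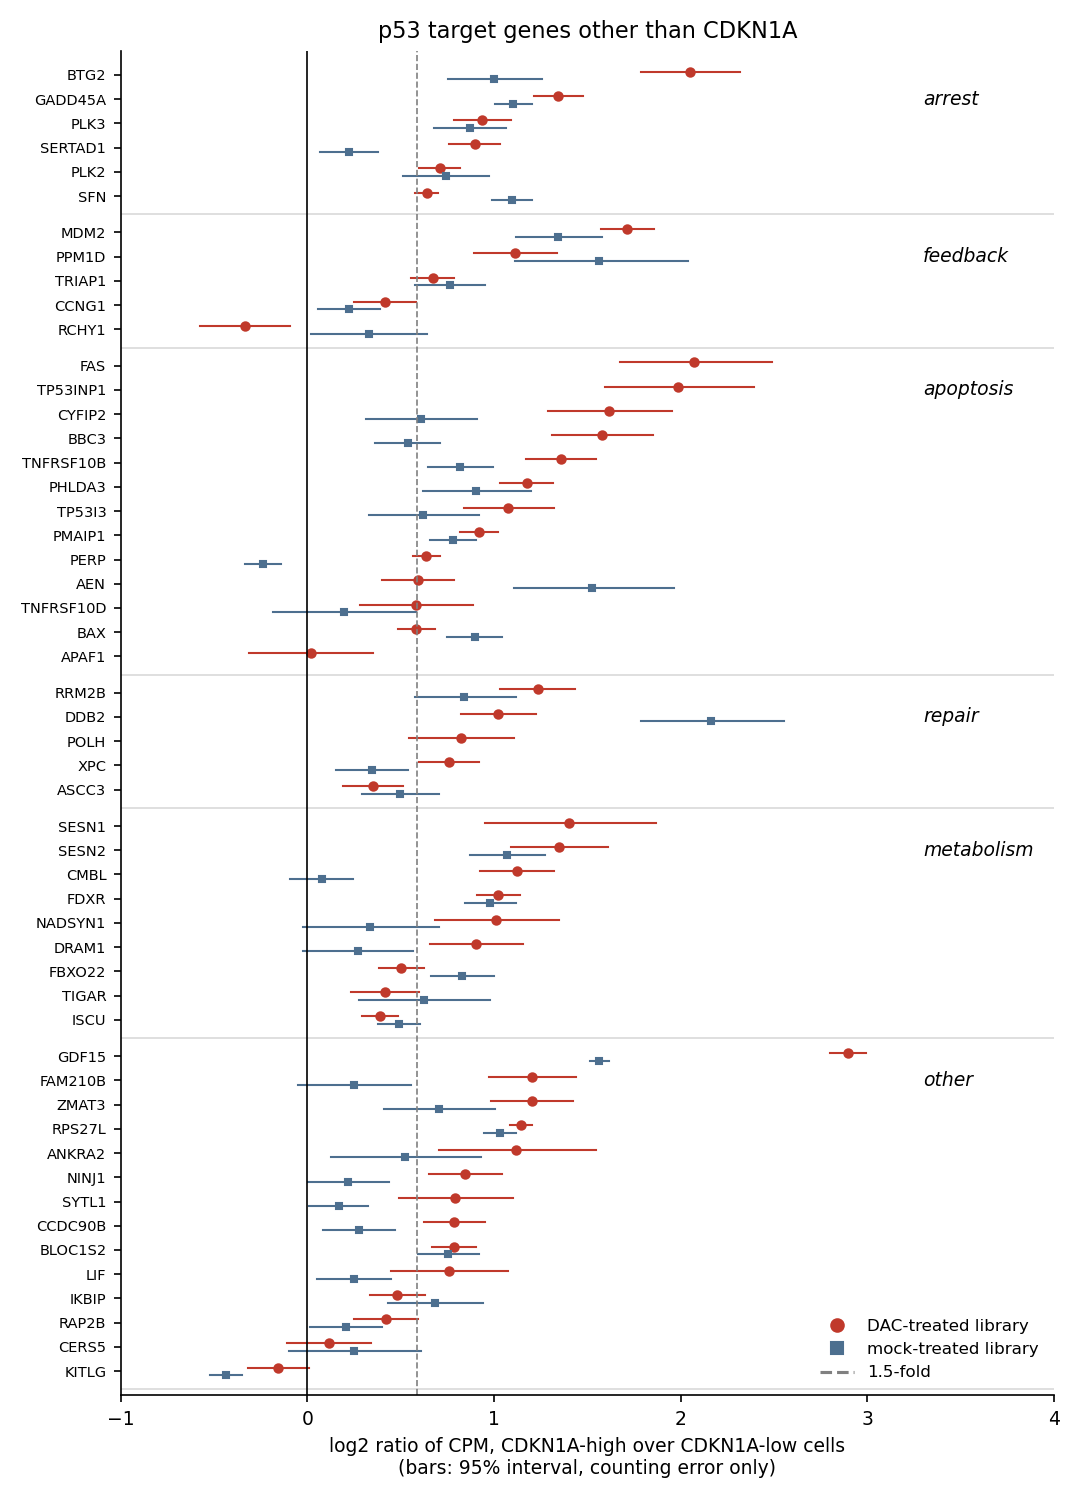
Log2 ratios of CPM, CDKN1A-high over CDKN1A-low cells, for the p53 targets other than CDKN1A that had 200 UMIs or more, grouped by role. Circles are the DAC-treated and squares the mock-treated library, bars are 95% intervals for counting error only, and the dashed line marks 1.5-fold. In the DAC-treated library 39 of 52 targets lie at or beyond that line and RCHY1 and KITLG lie below 0.

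Among the feedback regulators of p53, MDM2 had 40.4, 61.3, 76.2, and 132 CPM in the DAC-treated groups from low to high, a log2 ratio of 1.71 (1.57–1.86). The median CDKN1A-high cell had 100.1 CPM of MDM2 and the median CDKN1A-low cell had 32.2 CPM, and the ranges, 0 to 1672 and 0 to 199 CPM, overlapped. PPM1D, a phosphatase that turns off the p53 response, went from 18.4 to 39.8 CPM with a log2 ratio of 1.11 (0.89–1.34). TRIAP1 was higher by 0.67 (0.55–0.79) on the log2 scale. CCNG1, which recruits a phosphatase to MDM2, was higher by 0.41 (0.25–0.58) and did not reach 1.5-fold. RCHY1, a ubiquitin ligase of p53, went the other way, from 23.3 to 18.5 CPM, with a log2 ratio of -0.33 (-0.58 to -0.09). After thinning, RCHY1 was at 0.10 (-0.46 to 0.67).

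As ranked, all 6 arrest genes other than CDKN1A were higher by 1.5-fold or more. The antiproliferative gene BTG2 had 11, 18.6, 27.2, and 45.6 CPM over the groups and a log2 ratio of 2.05 (1.79–2.32). GADD45A, which binds CDK1 and PCNA after DNA damage, went from 49.1 to 125 CPM with a log2 ratio of 1.34 (1.21–1.48). The log2 ratios of PLK3, SERTAD1, PLK2, and SFN, the gene of the G2 checkpoint protein 14-3-3σ, were 0.94, 0.90, 0.71, and 0.64. Within bins of the S-phase and G2/M share, PLK2 and SFN were at 0.499 and 0.55, and SFN was at 0.55 after thinning, so that these were then under 1.5-fold.

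Among apoptosis genes, 10 of 13 were higher by 1.5-fold or more and the median log2 ratio was 1.08. The death receptor gene FAS had the highest ratio, from 4.79 through 8.51 and 11.4 to 20.1 CPM, a log2 ratio of 2.07 (1.67–2.49) from 63 and 283 UMIs. TP53INP1, a p53 cofactor, stood at 5.02, 4.70, 9.75, and 19.9 CPM, so that the difference lay between the upper groups, with a log2 ratio of 1.99 (1.59–2.40). CYFIP2 and BBC3, the latter the gene of the BH3-only protein PUMA, had log2 ratios of 1.62 (1.29–1.96) and 1.58 (1.31–1.85). The second death receptor gene TNFRSF10B and PHLDA3, an inhibitor of AKT, followed with 1.36 and 1.17. BAX, which permeabilizes the outer mitochondrial membrane, was at 0.58 (0.48–0.68), just under the limit of 1.5-fold, and APAF1, the scaffold of the apoptosome, was at 0.02 (-0.31 to 0.35).

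Of 5 DNA repair genes, RRM2B, a ribonucleotide reductase subunit, had a log2 ratio of 1.23 (1.03–1.44), and the damage recognition genes DDB2 and XPC had 1.02 (0.82–1.23) and 0.76 (0.60–0.92). With count splitting, XPC was at 0.51 (0.29–0.74) and under 1.5-fold. The translesion polymerase gene POLH was at 0.82 (0.54–1.11), and ASCC3, a helicase, was at 0.35 (0.19–0.51) and under 1.5-fold. Of 9 metabolic targets compared, 6 were higher by 1.5-fold or more. SESN1 and SESN2, which restrain mTORC1, had log2 ratios of 1.4 (0.95–1.87) and 1.35 (1.09–1.61), and FDXR, a mitochondrial ferredoxin reductase, went from 65.7 to 134 CPM at 1.02 (0.91–1.14). TIGAR, which lowers glycolytic flux, had 0.41 (0.23–0.60).

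Of the 14 remaining targets compared, 10 were higher by 1.5-fold or more. GDF15 went furthest, from 74.9 through 126 and 286 to 557 CPM, a log2 ratio of 2.90 (2.80–2.99), which was 2.10 after thinning and 1.98 within bins of the S-phase and G2/M share. The median cell had 275 CPM of GDF15 in the high and 11.8 CPM in the low group, while 28 CDKN1A-high cells had no GDF15 UMI and the highest CDKN1A-low cell reached 2387 CPM. RPS27L, a ribosomal protein paralog induced by p53, had 252, 327, 439, and 558 CPM and a log2 ratio of 1.14 (1.09–1.20). ZMAT3, an RNA-binding p53 target, and FAM210B had 1.20 (0.99–1.43) and 1.21 (0.97–1.44). CERS5 and KITLG were near no difference, at 0.11 (-0.11 to 0.34) and -0.16 (-0.32 to 0.01).

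The mock-treated cells ranked by CDKN1A showed the listed p53 targets largely in the same direction, with ratios above 1 in 45 of the 47 compared. Of 47 targets compared, 26 were higher by 1.5-fold or more and 0 were lower, where 369 of 7800 genes (4.73%) were higher and 87 (1.12%) were lower, and the median log2 ratio was 0.62. Their summed level was 2684, 2917, 3333, and 4655 CPM from low to high, beside 2381, 2814, 3450, and 4672 CPM in DAC-treated cells. Of CDKN1A-high mock-treated cells, 199 of 324 (61.4%, 55.9–66.7) were in the top 25% by p53 targets. The 93 mock-treated cells that reached the DAC limit had 5757 CPM of p53 targets, 562 CPM of CDKN1A, 90.3 CPM of MDM2, and 1722 CPM of GDF15. Hence MDM2 was lower and GDF15 higher there than in the CDKN1A-high DAC-treated cells, at 132 and 557 CPM. Single targets differed in their ratios between the libraries. GDF15 had a log2 ratio of 1.56 (1.51–1.62) in mock-treated cells, which was 1.33 below that in DAC-treated cells, with 434 CPM already in the mock low group. BTG2 was at 1.00 (0.75–1.26), 1.05 below. DDB2 differed the other way, at 2.16 (1.79–2.55) in mock-treated cells, and PPM1D was at 1.56 (1.11–2.04). Over 11 alternatives in the processing of both libraries, the ratio in DAC-treated minus that in mock-treated cells lay between 0.29, within bins of the S-phase and G2/M share, and 1.76 for GDF15 and between 0.63 and 1.53 for BTG2, positive in each. For DDB2 it lay between -1.24 and 0.073 and for PPM1D between -0.48 and 0.11, negative in 10 of the 11 for each and positive after thinning. For MDM2, GADD45A, RPS27L, and FDXR, the mock ratios were 1.34, 1.10, 1.03, and 0.98, and the DAC ratios as ranked exceeded them by 0.37 or less, with the sign of the difference turning in 1 or 2 of the alternatives for all but MDM2. Whether these differences would recur in other cultures was not tested.

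Genes of S phase and of G2/M were lower in CDKN1A-high DAC-treated cells. Of 52 G2/M genes, 41 were lower by 1.5-fold or more and 0 were higher, where 3.71% and 5.20% of all genes compared were. Their median log2 ratio was -0.78, and 48 of the 52 were lower in each group than in the one before, which held for 17.0% of all genes compared. Their summed level was 7764, 6834, 5417, and 4697 CPM from low to high. Of 40 S-phase genes compared, 13 were lower by 1.5-fold or more and 0 were higher, against the same shares of all genes. Their median was -0.53, with summed levels of 3159, 2885, 2645, and 2199 CPM. CCNB1, the cyclin of mitotic entry, went from 325 through 259 and 161 to 123 CPM, a log2 ratio of -1.4 (-1.48 to -1.32). CCNB2, CDC20, the activator of the anaphase-promoting complex, and CCNA2 had -1.27, -1.21, and -1.19, which within bins of the S-phase and G2/M share were -0.49, -0.48, and -0.32 and thus under 1.5-fold. Among S-phase genes, TIPIN, of the fork protection complex, and UNG, the uracil glycosylase, had the lowest ratios, -1.11 and -0.77. PCNA, the replication clamp and itself a p53 target, was at -0.17 (-0.25 to -0.09), but at 0.30 (0.22–0.38) when cells were ranked within bins of the S-phase and G2/M share, and the maintenance methyltransferase DNMT1 and its partner UHRF1 were at -0.40 (-0.47 to -0.33) and -0.56 (-0.72 to -0.40). Within those bins DNMT1 and UHRF1 were near no difference, at 0.048 (-0.026 to 0.12) and -0.027 (-0.19 to 0.13), and UNG was at -0.27 (-0.46 to -0.072). The bins were cut by the summed UMIs of the S-phase and G2/M lists themselves. Smaller ratios there of genes on these lists, and of genes that vary with them, are thus largely fixed by that matching.

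The CDKN1A-high cells were not uniformly low in these genes. The summed G2/M level had a median of 3360 CPM in a CDKN1A-high and 7240 CPM in a CDKN1A-low cell, with quartiles of 1168 and 7085 and of 4079 and 10641. Above the median of all retained DAC-treated cells were 102 of 280 CDKN1A-high cells (36.4%, 30.8–42.4) and 180 of 280 CDKN1A-low cells (64.3%, 58.4–69.9). Within the CDKN1A-high cells, the 102 above and the 178 at or below that median had similar p53 target sums, 4599 and 4716 CPM, and similar MDM2, 141 and 127 CPM. GDF15 was lower in the former, 466 against 612 CPM, and the mitochondrial share was 17.7% against 21.8%. The mitochondrial share thus moved with both CDKN1A and the cell cycle genes, and its part in the result was not tested. Among cells with 20% or less mitochondrial UMIs, the median log2 ratio of G2/M genes was -0.50 and that of p53 targets was 0.89.

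**Figure D3:**
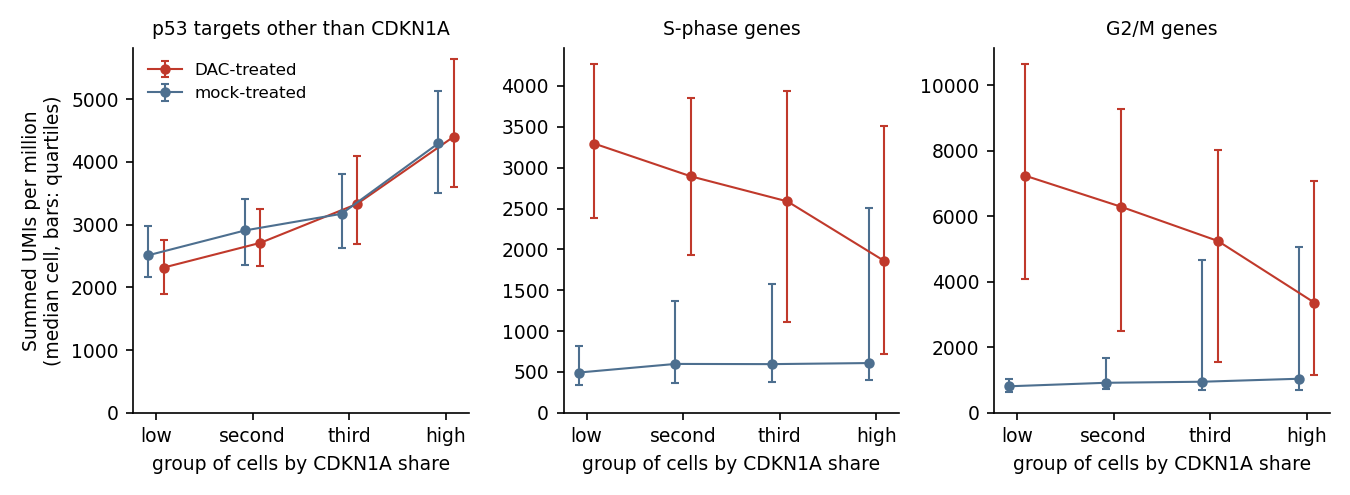
Summed UMIs per 1000000 UMIs of p53 targets other than CDKN1A, S-phase genes, and G2/M genes in the 4 groups of cells by CDKN1A share. Points are the median cell and bars the quartiles over the 280 (DAC-treated, red) or 324 to 325 (mock-treated, blue) cells. In DAC-treated cells the median of the G2/M genes goes from 7240 CPM in the low to 3360 CPM in the high group, while p53 targets go up in both libraries.

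In mock-treated cells, cell cycle genes were higher, not lower, in the high than in the low group. Of all genes compared there, 4.73% were higher by 1.5-fold or more and 1.12% were lower. The median log2 ratio was 1.11 for 48 G2/M genes, of which 38 were higher by 1.5-fold or more, and 1.09 for 34 S-phase genes, of which 24 were. Their summed levels were 1654, 3396, 3833, and 3220 CPM for G2/M, highest in the third group, and 793, 1112, 1381, and 1616 CPM for S phase, and thus stayed under those of the DAC-treated cells in every group. The median mock-treated cell differed less, at 811 CPM of G2/M genes in the low and 1040.3 CPM in the high group, while the upper quartile went from 1032 to 5074 CPM, so that the difference lay in the cells with the most G2/M transcripts. These mock ratios moved with depth. When mock-treated cells were ranked within 10 bins of total UMIs, the G2/M median was -0.17 and the S-phase median 0.43, and after every cell was thinned to 10000 UMIs the medians were 0.36 and 0.56. The thinned low groups held only cells without a CDKN1A UMI, and ties among them were ordered by barcode alone. In DAC-treated cells the same rankings gave -0.77 and -0.56 for G2/M and -0.52 and -0.46 for S phase. CCNB1 in mock-treated cells had a log2 ratio of 0.81 (0.64–0.99) as ranked and -0.68 (-0.82 to -0.55) within bins of total UMIs. The direction of the G2/M genes in mock-treated cells thus depended on how depth was treated, and that of the S-phase genes was positive in each of these rankings. Cells were also ranked within 10 bins of the summed S-phase and G2/M share. The bins were cut by the same genes that are measured, so list medians near 0 are largely fixed in advance. In DAC-treated cells the medians were -0.017 for S phase and -0.057 for G2/M, while CCNB1 was at -0.68 (-0.76 to -0.60). In mock-treated cells the G2/M median was -0.52 and the S-phase median -0.015, so the G2/M genes were not level there. In this ranking p53 targets had medians of 0.77 in DAC-treated and 0.69 in mock-treated cells.

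**Figure D4:**
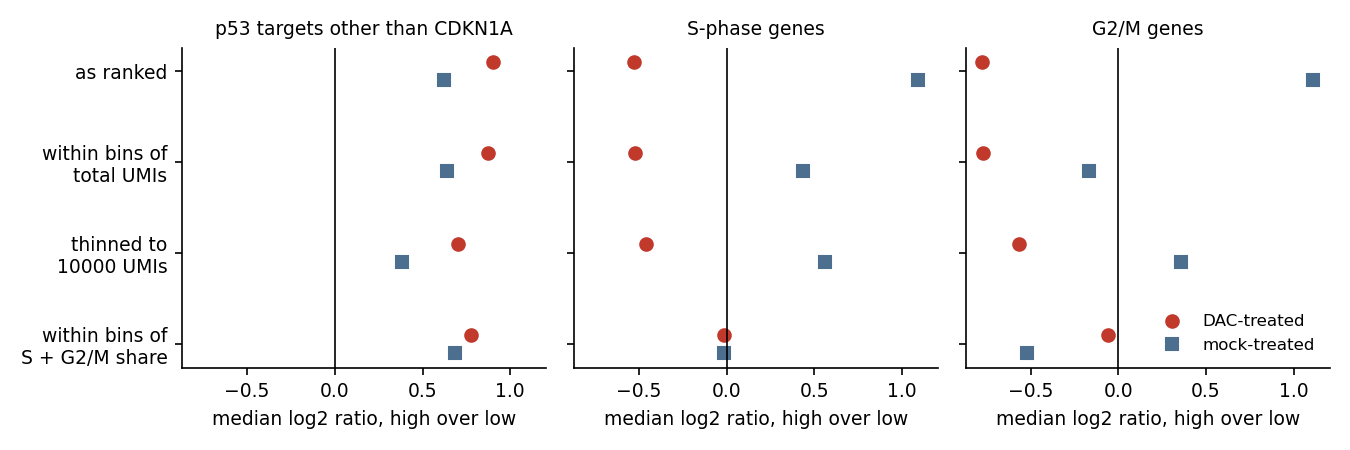
Median log2 ratio of CDKN1A-high over CDKN1A-low cells for 3 gene lists, as ranked, ranked within 10 bins of total UMIs, after thinning every cell to 10000 UMIs, and ranked within 10 bins of the S-phase and G2/M share (circles DAC-treated, squares mock-treated). G2/M genes in mock-treated cells go from 1.11 to -0.17 within bins of total UMIs, while p53 targets lie above 0 in every ranking shown. The bins of the S-phase and G2/M share are cut by the S-phase and G2/M genes themselves.

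The other CDK inhibitors did not follow CDKN1A as a group. CDKN2B, the gene of p15, was the only one of the other 6 higher by 1.5-fold or more, from 5.93 to 13.8 CPM with a log2 ratio of 1.22 (0.83–1.62). CDKN1C, the gene of p57, and CDKN2A, which encodes p16 and p14ARF, had 0.37 (0.14–0.60) and 0.21 (0.09–0.32). CDKN2D, CDKN1B, and CDKN2C, the genes of p19, p27, and p18, were at -0.32 (-0.46 to -0.19), -0.50 (-0.78 to -0.23), and -0.79 (-1.16 to -0.42). Within bins of the S-phase and G2/M share, CDKN2D turned to 0.35 (0.21–0.49) and CDKN2C was at -0.22 (-0.58 to 0.14). After thinning, CDKN2B was at 0.61 (-0.19 to 1.43), CDKN2C at -0.26 (-1.09 to 0.55), and CDKN1B at -0.89 (-1.61 to -0.20), the last then past 1.5-fold. In mock-treated cells, CDKN2B was at 0.04 (-0.29 to 0.37), or 0.88 (0.16–1.66) between the top and bottom 10% of cells, CDKN2A at 0.33 (0.21–0.45), and CDKN1C at -0.82 (-1.07 to -0.57), the last at -0.094 after thinning. Of 12 cyclin and CDK genes compared in DAC-treated cells, 3 were lower by 1.5-fold or more, where 3.71% of all genes compared were. These were CCNB1, CCNA2, and CDK2, the last at -0.68 (-0.89 to -0.48). Within bins of the S-phase and G2/M share these were at -0.68, -0.32, and -0.25, so that CCNB1 alone stayed past 1.5-fold. The G1 genes were level, with CCND1 at 1230 and 1356 CPM, CDK6 at a log2 ratio of 0.15, CCNE1 at -0.04, and CCND3 at -0.04, while CDK4 was at -0.42 (-0.53 to -0.32).

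Beyond p53 targets, several genes with high ratios were carried by few cells. CXCL8, the gene of interleukin 8, had 2.43, 7.69, 13.1, and 39.8 CPM over the groups, and its log2 ratio of 4.03 (3.52–4.59) was next to that of CDKN1A among genes with 500 UMIs or more over both groups. However, 74.6% of its UMIs in CDKN1A-high cells lay in 5 of the 280 cells, and without the 5 highest cells in each group the ratio was 3.25 (2.45–4.16). H3.Y, a primate histone variant gene, had 713 UMIs in CDKN1A-high cells, 412 of them in 1 cell, which had 40840 UMIs in all and ranked 101 of 280 by CDKN1A share, and without the 5 highest cells 14 UMIs remained. It had no UMI in retained mock-treated cells, which allows up to 0.0637 CPM with 3 counts as the limit. IFIT2, an interferon-stimulated gene, had 96.3% of its UMIs in CDKN1A-high cells in 5 of them. Its log2 ratio of 1.77 became -0.97 (-2.69 to 0.59) without the 5 highest cells of each group, from 6 high-group and 11 low-group UMIs. DDIT3, the gene of the stress factor CHOP, had 67.7% in 5 cells and went from 1.71 to 1.12 (0.84–1.41), and over all alternatives it lay between 0.52, after thinning, and 2.87, at a mitochondrial limit of 20%. These cells were mostly different ones, with 2 of 5 shared by CXCL8 and DDIT3 and 0 of 5 by H3.Y and CXCL8. KRT13, a keratin gene with the lowest log2 ratio among genes with 500 UMIs or more, -1.47, was likewise carried by few CDKN1A-low cells, with 280 of 751 UMIs in 1 of them, and was at -0.56 (-0.93 to -0.19) without the 5 highest cells and -0.28 (-0.68 to 0.12) after thinning.

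**Figure D5:**
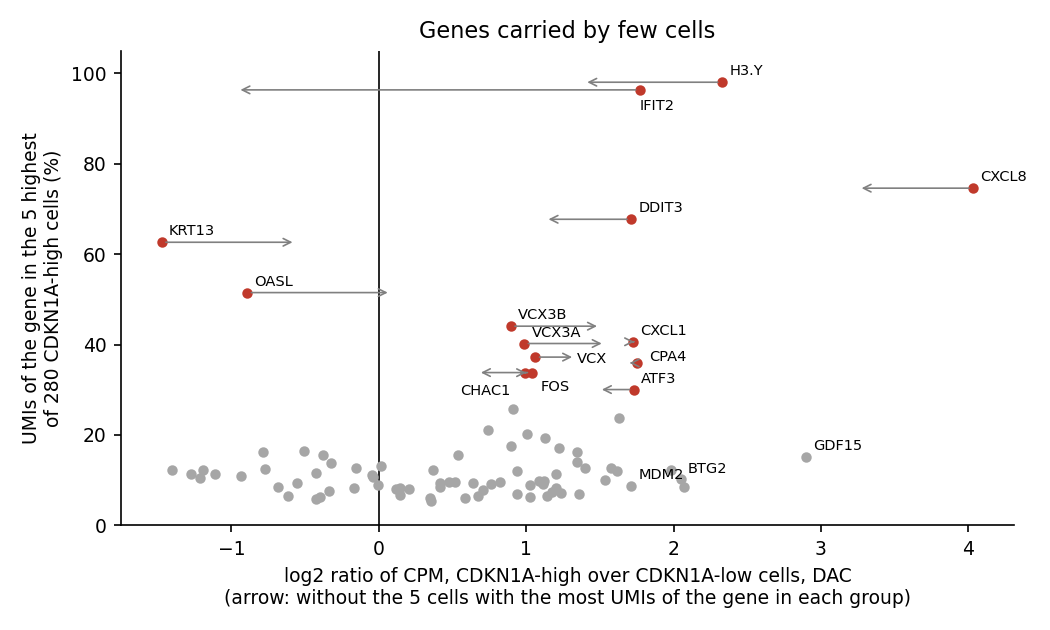
Named genes in DAC-treated cells by their log2 ratio of CPM, CDKN1A-high over CDKN1A-low cells (horizontal axis), and the percent of their UMIs in CDKN1A-high cells that lay in the 5 highest of 280 cells (vertical axis). Genes with 30% or more are named, and their arrows lead to the ratio without the 5 highest cells of each group. H3.Y and IFIT2 lie above 96%, and CXCL8 at 74.6%, while GDF15, MDM2, and BTG2 lie far below.

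The nuclear noncoding RNA NEAT1, which scaffolds paraspeckles, had 330.3, 423, 730.0, and 956 CPM and a log2 ratio of 1.53 (1.48–1.58), with 0.50 (0.45–0.55) in mock-treated cells. Over 11 alternatives, the DAC ratio exceeded the mock ratio by 0.39, within bins of the S-phase and G2/M share, to 1.39. NEAT1 was spread over many cells, with 10.1% of its UMIs in the 5 highest CDKN1A-high cells. The stress transcription factor ATF3, also a p53 target, was at 1.73 (1.51–1.95) with 30% of its UMIs in 5 cells, the carboxypeptidase CPA4 at 1.75 (1.54–1.97) with 35.9%, and BIRC3, an NF-κB-induced inhibitor of apoptosis, at 1.63 (1.39–1.88) with 23.6%. The chemokine CXCL1 was at 1.73 (1.39–2.08) with 40.6% in 5 cells. Without the 5 highest cells of each group, these 4 genes were at 1.49, 1.67, 1.86, and 1.73. CPA4 depended on the ranking, at 0.59 (0.17–1.02) after thinning and 0.44 (0.24–0.63) within bins of the S-phase and G2/M share. Of 21 genes of the senescence-associated secretory phenotype and of senescence, 10 were compared and the median was 0.25, or -0.026 between the top and bottom 10% of cells. CXCL8 and CXCL1 were among those higher by 1.5-fold or more, and 1 was lower. The lower one was LMNB1, the lamin B1 gene, at -0.94 (-1.11 to -0.76) and at -0.30 (-0.47 to -0.12) within bins of the S-phase and G2/M share, a gene whose loss marks senescence and which is also expressed with the cell cycle. Of 13 immediate early genes, 4 were higher and 0 lower with a median of 0.47, including FOS at 1.04 and DUSP1 at 1.13, where 5.20% of all genes were higher and 3.71% lower.

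Across single cells, the genes most like CDKN1A were largely p53 targets. Over 1120 retained DAC-treated cells and 5536 genes that averaged at least 1 UMI per cell, the Spearman coefficient with the CDKN1A share was 0.51 for RPS27L, 0.45 for GDF15, 0.40 for MDM2, and 0.38 for NEAT1, followed by BTG2, PHLDA3, TNFRSF10B, FAM210B, GADD45A, and FDXR at 0.38 to 0.29. Of these 10, NEAT1 alone was outside the p53 list. The lowest were SRSF7, a splicing factor, at -0.37 and ANP32B at -0.36. All cells shared 1 library and differed in depth, and the coefficient of the CDKN1A share with total UMIs was 0.07 in DAC-treated and 0.27 in mock-treated cells. The coefficient with the mitochondrial share was 0.27 and -0.14.

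Genes low or absent in mock-treated cells took a slightly larger share of the UMIs with more CDKN1A. These were the 22208 genes that no mock-treated cell had at more than 2 UMIs, of which 12810 had a UMI in retained DAC-treated cells. They took 1.09%, 1.25%, 1.28%, and 1.32% of the UMIs of the groups from low to high. The choice of these genes on mock-treated cells fixes their low level there. Of 24 cancer-testis genes compared, 6 were higher by 1.5-fold or more, where 5.20% of all genes compared were, and the median was 0.03. These were genes of the VCX and PAGE families on the X chromosome, with VCX3B at 0.90 (0.80–1.00) and VCX3A at 0.99 (0.86–1.11), whose sequences are nearly alike so that counts may be split between them. After thinning to 10000 UMIs, VCX3B was at -0.55 (-0.76 to -0.35) and VCX3A at -0.21 (-0.45 to 0.03), while at a mitochondrial limit of 20% they were at 1.76 (1.58–1.94) and 1.89 (1.67–2.13). Within bins of the S-phase and G2/M share they were at 0.20 (0.11–0.29) and 0.18 (0.063–0.29), under 1.5-fold. Thinning was the only one of 13 alternatives that turned their direction. The thinned low group held only cells without a CDKN1A UMI, tied cells were ordered by barcode, and the reason for the turn was not tested. Of 27 interferon-stimulated genes compared, 2 were higher and 1 was lower with a median of 0.14, shares near the 5.20% and 3.71% of all genes. Their summed level was 3988, 4476, 5143, and 4630 CPM, highest in the third group, and IFI27, the most abundant of the named ones, had 676, 901, 1159, and 966 CPM. OASL, the lower gene, went from -0.89 to 0.089 without its 5 highest cells per group.

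Most other groups differed little. The 13 protein-coding mitochondrial genes had a median of 0.27, with MT-CO2 at 0.36 and MT-ND6 at -0.38. The medians were -0.08 for 25 ribosomal protein genes, -0.08 for 13 housekeeping genes, -0.02 for 13 NRF2 targets, of which the iron store gene FTH1 was at 0.48, -0.07 for 7 DNA methylation genes, and -0.05 for 5 colon differentiation genes, and none of the genes of these lists passed 1.5-fold except 1 NRF2 target, which was lower. Of 8 epithelial genes, 4 had ratios above 1 and up to 0.29 on the log2 scale, and the median was -0.0084. The 1 gene past 1.5-fold, EPCAM, a surface adhesion molecule of epithelial cells, was lower at -0.61 (-0.69 to -0.54), and CLDN7 was at -0.43. For 19 targets of the amino acid stress factor ATF4, the median was 0.18, with 5 higher and 1 lower, where 5.20% and 3.71% of all genes were. The median was -0.12 after thinning.

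Some genes went with CDKN1A in DAC-treated cells but against it in mock-treated cells. SAT1, which acetylates polyamines and is a p53 target outside the list used here, had 124, 172, 182, and 238 CPM over the DAC-treated groups, a log2 ratio of 0.94 (0.85–1.02). In mock-treated cells it had 2089, 1407, 1386, and 1220 CPM, -0.78 (-0.81 to -0.75), at a far higher level throughout. The glutaredoxin gene GLRX had 1.01 (0.85–1.17), or 0.56 within bins of the S-phase and G2/M share, and -0.60 (-0.75 to -0.44), and PNRC1, a nuclear receptor coactivator, had 1.09 (0.88–1.30) and -0.37 (-0.53 to -0.22). Within bins of total UMIs, the mock ratios of SAT1, GLRX, and PNRC1 were -0.48, -0.39, and -0.02. After thinning, SAT1 was at 0.57 in DAC-treated and -0.36 in mock-treated cells, both under 1.5-fold. AREG, the gene of the growth factor amphiregulin, was higher with CDKN1A in both libraries, at 0.54 (0.50–0.58) and 0.95 (0.92–0.98).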

How the data were processed

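Single-cell libraries were prepared by the authors from DAC-treated and mock-treated HCT116 cells, 1 each, on the 10x Genomics Chromium 3′ v3 platform. The authors deposited whole UMI counts for 33538 genes per cell, mapped to hg38 with Cell Ranger and not normalized. The annotation release and any filter on cells are not given in the sources used here. Of the DAC-treated cells, 631 were left out here (458 under 10000 UMIs, 173 over 50% mitochondrial UMIs), and 485 of the mock-treated cells (395 and 90). The deposited libraries held 59046165 and 49911689 UMIs. Of the gene names, 24 were repeated and these were not used in lists.

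Counts were summed over the cells of a group and divided by all UMIs of the group (CPM). Ties in the ranking were ordered by fewer UMIs, then barcode. Genes with 200 UMIs or more over both groups were compared, and a ratio of 1.5-fold or more was counted. Intervals were exact (Poisson for sums, conditional binomial for ratios, Clopper-Pearson for shares of cells). No test was made, since cells of 1 library are not replicates. Doublets were not called, since a pair of cells from 1 line has no mark of its own, and a ranking without the deepest 5% of cells was tried. Named genes were CDKN1A, MDM2, and GDF15, all CDK inhibitors and cyclins of the lists, up to 6 highest and 3 lowest of each other list, the genes with the 10 highest and 10 lowest ratios and the 8 highest and 8 lowest differences between libraries at 500 UMIs or more, and the 10 most correlated with CDKN1A; a few of these are not reported here. The members and gene lists were chosen with earlier results of these data known. Python 3.11.15, numpy 2.4.6, scipy 1.17.1, pandas 2.3.3, and matplotlib 3.10.9 were used, and the scripts were tested on simulated data. The alternatives tried are given in the closing section.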

Additional observations from a re-analysis of the deposited data

Results flagged for a closer look

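A few results had opposite directions in the libraries, both by 1.5-fold or more, when cells were ranked by CDKN1A. The difference between the libraries was not tested, since there is 1 library per condition. The median log2 ratio of the G2/M genes was -0.78 in DAC-treated and 1.11 in mock-treated cells, a difference of -1.89. CCNA2 differed by -2.26, CCNB1 by -2.21, LMNB1 by -1.75, and CDK2 by -1.64, all lower with CDKN1A in DAC-treated cells and higher in mock-treated cells. Within bins of the S-phase and G2/M share these differences were 0.58 for CCNA2, 0.34 for CCNB1, 0.37 for LMNB1, and 0.47 for the median of the G2/M genes, and thus turned, while CDK2 was at -0.49. Those bins were cut by the S-phase and G2/M genes themselves, so ratios of cell cycle genes there are constrained by the matching. As ranked, GLRX differed by 1.61 and SAT1 by 1.71 in the other direction. After thinning, SAT1 was at 0.57 in DAC-treated and -0.36 in mock-treated cells, both under 1.5-fold. GLRX was then at 1.00 and -0.33, the latter under 1.5-fold. Within bins of total UMIs, the mock ratios of CCNA2, CCNB1, and LMNB1 were -0.53, -0.68, and -0.15 (interval of the last -0.37 to 0.072), so that CCNA2 and CCNB1 were then lower in both libraries and LMNB1 had no clear direction in mock-treated cells, while those of CDK2, GLRX, and SAT1 were 0.54, -0.39, and -0.48 and kept their sign. The mock low group was shallower than the high group, at medians of 26423 and 37178 UMIs.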

How the results depend on the processing

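The p53 targets had a positive median log2 ratio under all alternatives run in both libraries, from 0.70 to 1.00 in DAC-treated and from 0.38 to 0.92 in mock-treated cells. For the top and bottom 10% of cells, the values were 6.81 for CDKN1A, -0.82 for S-phase and -0.98 for G2/M genes, 0.33 for the share of genes low in mock-treated cells (log2 ratio as ranked 0.26), and 600 genes lower in DAC-treated cells, and 0.56 for G2/M genes, 0.92 for p53 targets, and 240 genes higher in mock-treated cells. After thinning to 10000 UMIs, DAC-treated cells had -0.56 for G2/M, -0.22 for cancer-testis, 0.70 for p53 targets, 0.18 for genes low in mock, and 82 genes higher and 117 lower, and mock-treated cells had 0.56 for S-phase, 0.36 for G2/M, and 41 genes higher and 12 lower. Ranking within bins of total UMIs gave 0.28 for genes low in mock in DAC-treated cells, and 0.43 for S-phase, -0.17 for G2/M, and 101 genes higher and 49 lower in mock-treated cells. Within bins of the S-phase and G2/M share, DAC-treated cells had -0.017 for S-phase, -0.057 for G2/M, 0.13 for genes low in mock, 4.0 for CDKN1A, and 204 genes higher and 61 lower, and mock-treated cells had -0.015, -0.52, and 56 genes higher. The S-phase and G2/M values of this setting are constrained, since the same genes cut the bins. Count splitting gave 3.18 for CDKN1A and 269 genes higher in DAC-treated cells, and 1.4 for G2/M in mock-treated cells. A minimum of 20000 UMIs gave 0.28 for genes low in mock and 0.57 for G2/M in mock-treated cells. A 20% mitochondrial limit gave -0.30 for S-phase, -0.50 for G2/M, 0.31 for interferon, 0.37 for genes low in mock, and 122 genes lower. Totals without mitochondrial genes gave 0.38 for genes low in mock and 710 genes higher. Without a UMI minimum for genes, 3809 were higher and 1654 lower in DAC-treated and 1630 and 2501 in mock-treated cells, and at 2-fold 103 and 24, and 164 and 3. The number of genes compared also changed with the setting, so the counts above have different bases. In DAC-treated cells it was 8938 as ranked, 5764 for the top and bottom 10%, 3746 after thinning, and 6644 with count splitting. It was 7469 at the 20% limit and 19266 without a UMI minimum. In mock-treated cells it was 7800 as ranked, 4382 for the top and bottom 10%, 3719 after thinning, and 16513 without a UMI minimum. The causes were not tested.

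Named genes at 1.5-fold or more changed sign in some settings. After thinning, CHAC1 was at -0.35, VCX3A at -0.21, VCX3B at -0.55, VCX at -0.29, PAGE1 at -0.38, and OASL at 0.63, and OASL was at 0.11 with the 20% limit. Without the 5 highest cells per group, chosen after seeing the data, IFIT2 was at -0.97 and OASL at 0.089. In mock-treated cells, CCNB1 was at -0.13 for the top and bottom 10%. Within bins of total UMIs, CCNB1, CCNA2, and LMNB1 were at -0.68, -0.53, and -0.15, and within bins of the S-phase and G2/M share at -1.02, -0.90, and -0.67. Over 1338 other values in DAC-treated cells, 1033 lay within the counting interval of the value as ranked, 296 outside it, and 9 had the opposite sign to a value of 1.5-fold or more. Counting values of any size, 58 had the opposite sign, and in 5 of these both intervals lay clear of 0. The 5 were VCX3B and PAGE1 after thinning, and CDKN2D (0.35), PCNA (0.30), and CCND1 (-0.050) within bins of the S-phase and G2/M share. A shift of over 1.5-fold occurred in 60 of the 1338 values. Mock-treated cells had 273 other values, of which 90 lay outside the interval, 19 shifted by over 1.5-fold, and 5 turned with both intervals clear of 0. Taking all mock-treated cells without a CDKN1A UMI as the bottom group, or leaving out the mock cell with the highest CDKN1A share or the barcodes found in both libraries, all added after seeing the data, left each of the main results within its interval or within 1.5 times its count. A thinned CDKN1A ratio could not be had, since the thinned low group had no CDKN1A UMI. Thinned cells had equal totals, so ties were ordered by barcode, and thinning was drawn once. No paired analysis was possible because there is 1 library per condition.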
